A study of Mus musculus with 12 samples.

Results

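The genes described here encode subunits of oxidative phosphorylation, the mitochondrial system that turns the oxidation of NADH and succinate into ATP. They were selected by symbol and level. Of 24439 gene names in the RNA-Seq tables, 86 have a symbol of complex I (Nduf with a, b, c, s or v and a number), complex II (Sdha to Sdhd), complex III (Uqcr and Cyc1), cytochrome c (Cycs), complex IV (Cox4 to Cox8) or complex V (Atp5), and 77 of these had more than 1 FPKM in at least 3 of 12 libraries. These 77 members are 35 genes of complex I, 4 of complex II, 9 of complex III, 1 of cytochrome c, 12 of complex IV and 16 of complex V. Complex IV includes Ndufa4, which by its name would be counted with complex I but encodes a complex IV subunit. Atp5sl matches by its symbol, although its product is known as an assembly protein and is not an ATP synthase subunit. It is kept in all counts, sums and medians of complex V. No member reached the level through 1 group alone, as 76 members were over it in all 12 libraries and Ndufs5 was over it in 11.

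Complexes I, III and IV pump protons out of the mitochondrial matrix as electrons pass to oxygen, complex II feeds in electrons from succinate, cytochrome c carries electrons from complex III to complex IV, and complex V, the ATP synthase, lets the protons back in and makes ATP. T cells that leave rest enlarge their mitochondria and raise both glycolysis and respiration as they grow and divide. IL-2 is the growth factor that keeps such T blast cells dividing. Subunits of these complexes are also encoded by mitochondrial DNA, but none of the 26 mitochondrially encoded genes looked for has a name in the tables, so the data cover nuclear genes.

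The RNA came from CD4 T cells purified from the spleen of C57BL/6 C42 mice, a line that carries a human transgene with the IL3 and CSF2 genes, and all 4 groups share this strain and the first culture steps. The cells were stimulated with 2 ug/ml concanavalin A (ConA), a lectin that activates T cells, for 40 h, and were then grown in 50 U/ml IL-2. For the last 16 h they were kept with IL-2 (TB IL-2) or without it (TB IL-2nil). TB+ IL-2 and TB+ IL-2nil are the same cells after stimulation with PMA and calcium ionophore (PMA/I), which imitate signals of the T cell receptor. There were 3 libraries per group, and the labels do not say whether they came from separate mice, so that P-values measure the spread between these libraries.

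The deposited labels of 2 libraries go against the study's own list of differentially expressed genes, which gives a value for each library. In that list, the column of TB IL-2nil replicate 3 holds the values of the library labelled TB+ IL-2 replicate 3, with 98.4% of 1381 genes met within 0.1%, and the column of TB+ IL-2 replicate 3 holds those of the library labelled TB IL-2nil replicate 3, with 99.9% met. The libraries of the same labels met 0% in these columns, and for the other 10 columns the library of the same label met 97.1 to 99.9%. The 2 libraries were therefore placed in each other's group, and the main results are also given by the labels and without both libraries. Replicate 3 of TB IL-2nil and of TB+ IL-2 below means the library so placed. The level of Il2 was 1368 FPKM in the library labelled TB IL-2nil replicate 3 and 0.290 FPKM in that labelled TB+ IL-2 replicate 3. It was 0 to 1.18 FPKM in the other libraries labelled TB and 1095 to 2374 FPKM in the others labelled TB+.

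Levels are given in TPM, a share of all transcripts per length of gene, made here from the deposited FPKM values and scaled to a common upper quartile. Differences are on the log2(TPM + 1) scale, with a standard error (SE) and a P-value from limma over 12442 genes, adjusted by the method of Benjamini-Hochberg, and a gene is said to have changed at an adjusted P under 0.05. In comparisons of IL-2, rose and fell mean higher and lower in cells kept in IL-2 than in cells from which it was removed. The tables hold no read counts. Steps between low values put the depth of the libraries at 0.407 to 1.24 times that of the median library, with the shallowest in TB IL-2nil replicate 2. Short non-coding RNAs took 16.6 to 53.2% of the FPKM sum, with the highest share in TB+ IL-2nil replicate 1. The T cell markers Cd3d, Cd3e, Cd3g, Cd4, Cd2 and Cd5 were all 6 tested, and their summed level was 1460 to 1470 TPM in TB IL-2, 2202 to 2377 TPM in TB IL-2nil, 1566 to 1748 TPM in TB+ IL-2 and 2199 to 2618 TPM in TB+ IL-2nil.

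The promoters of 2 members are shown for what follows, because cytochrome c had one of the largest differences with IL-2 and Cox7a2l was the subunit gene that went most clearly the other way. Both are the 250 bases before the RefSeq start and occur once in mm9. The promoter of Cycs is at chr6:50516569-50516818 and that of Cox7a2l at chr17:83913674-83913923, both on the minus strand. Capitals in Cycs mark a CREB motif, which starts 169 bases before the start site, and the core of an NRF1 motif, which starts 61 bases before it. NRF1 is a transcription factor known to bind promoters of respiratory chain genes. Capitals in Cox7a2l mark a GC box, 22 bases before the start site.
Cycs: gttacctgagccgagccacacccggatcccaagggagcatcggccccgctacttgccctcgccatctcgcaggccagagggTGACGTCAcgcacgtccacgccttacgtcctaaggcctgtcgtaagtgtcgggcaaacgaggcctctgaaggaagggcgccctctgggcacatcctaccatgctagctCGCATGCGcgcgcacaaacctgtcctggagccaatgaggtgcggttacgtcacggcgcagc
Cox7a2l: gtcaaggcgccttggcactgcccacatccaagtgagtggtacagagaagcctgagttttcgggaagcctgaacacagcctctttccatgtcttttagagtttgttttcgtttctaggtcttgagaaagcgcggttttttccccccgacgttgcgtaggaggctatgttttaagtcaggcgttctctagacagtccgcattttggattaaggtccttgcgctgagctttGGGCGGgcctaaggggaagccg

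Across the members, TB IL-2 cells held more subunit RNA than TB IL-2nil cells. The summed level of all 77 members was 13637, 15415 and 16220 TPM in the 3 TB IL-2 libraries and 8701, 10306 and 9917 TPM in the 3 TB IL-2nil libraries. The groups did not overlap. Of the members, 48 rose with IL-2, or 62.3%, beside 17.3% of all genes tested, and 2 fell, beside 22.3% of all genes. The median difference of the members was 0.69, against -0.13 for all genes, and 72 of the 77 differences were above 0. All 3 TB IL-2 libraries were above all 3 TB IL-2nil libraries in 57 members, beside 22.8% of all genes, and below them in 4, beside 30.4%.

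By their labels, no member passed in either direction in limma, beside 9 genes higher and 6 lower of all 12442. In that fit, 5 members had an unadjusted P under 0.05, and the median difference of the members was 0.47. Without both libraries, 40 members were higher and 2 lower, beside 1794 and 2205 of all genes. With the replicate number as a block 55 were higher and 4 lower, beside 2656 and 3666 of all genes. Without any scaling between libraries after TPM, 21 were higher, beside 1220 of all genes. In RNA from whole cultures, fewer cells of a type and less RNA per cell cannot be told apart, and values that are shares of all transcripts do not give the amount of RNA per cell.

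**Figure D1:**
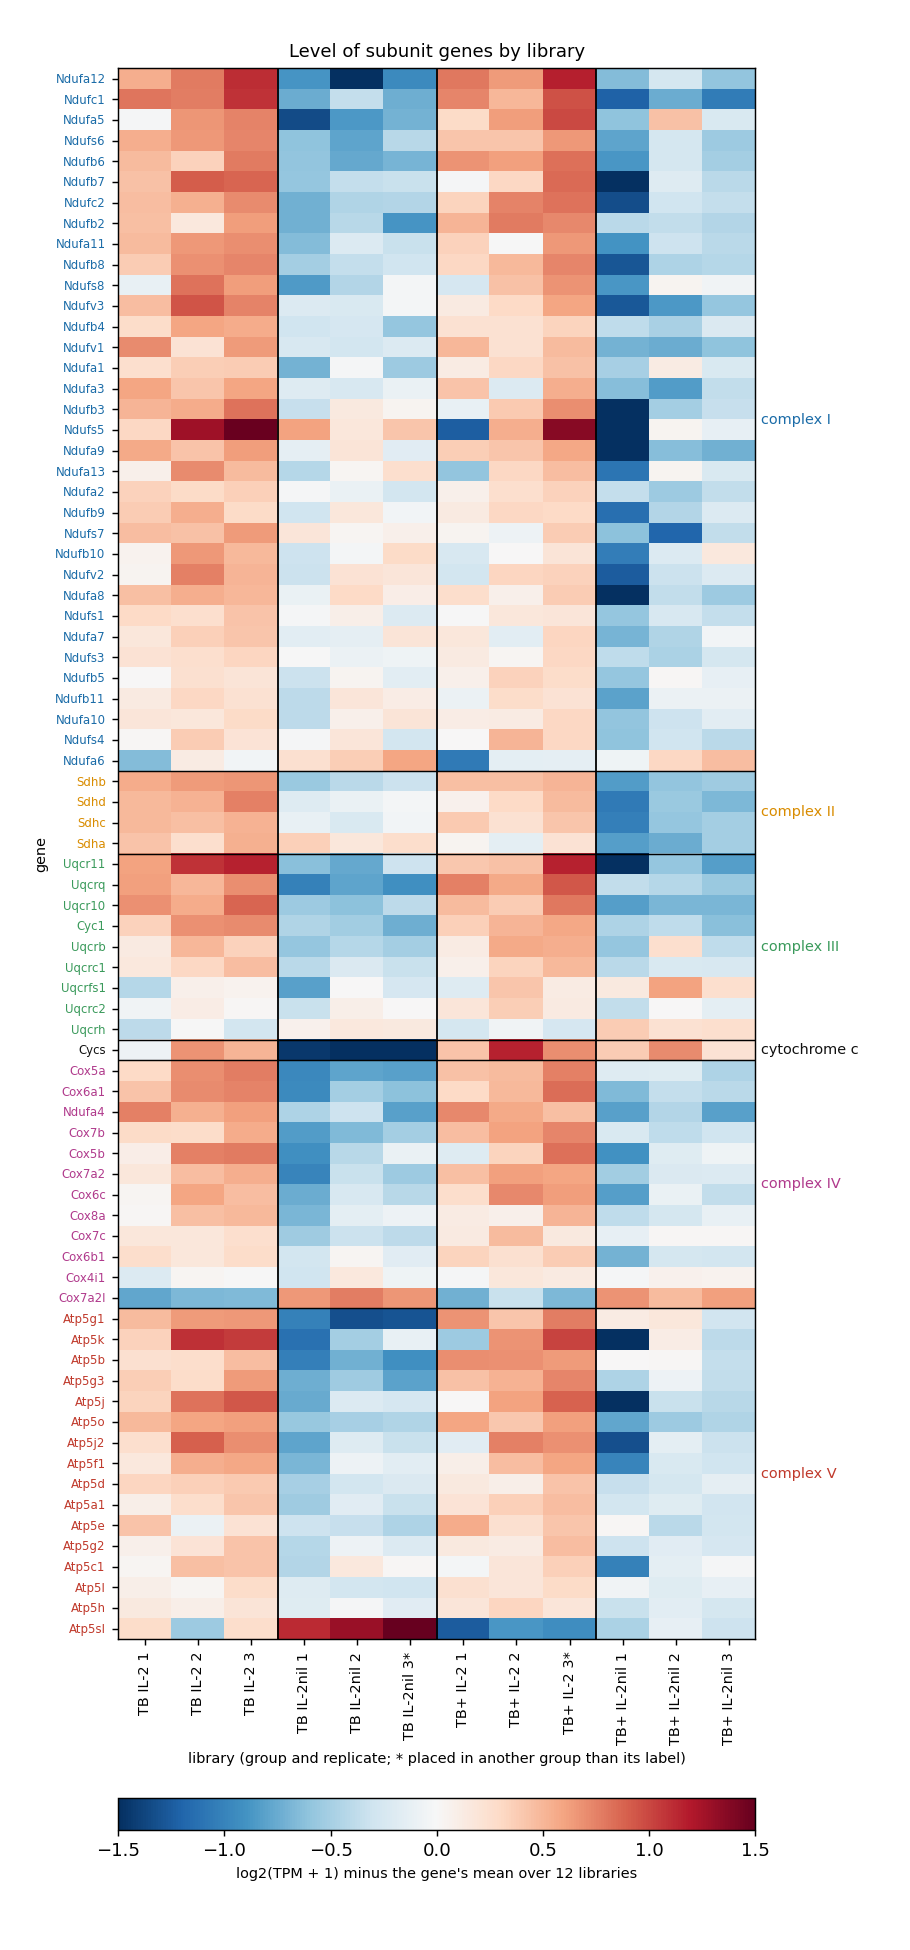
Level of 76 of the 77 members (rows, by complex and then by difference with IL-2) in each of the 12 libraries (columns), as log2(TPM + 1) minus the gene's mean over the libraries; red is above the mean and blue below, and an asterisk marks the 2 libraries placed in another group than their label. Most rows are red in both groups with IL-2 and blue in both without, while Cox7a2l and Uqcrh show the opposite order.

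In complex I, which takes electrons from NADH, 16 of 35 genes rose in TB IL-2 and none fell. The most abundant member was Ndufa3, an accessory subunit, with 369, 326 and 369 TPM in TB IL-2 and 214, 207 and 229 TPM in TB IL-2nil (log2 difference 0.71, SE 0.20, adjusted P = 0.0175, limma). The difference of Ndufa3 missed the threshold without TB IL-2 replicate 3 or TB IL-2nil replicate 2 (adjusted P up to 0.0553). Ndufa12, another accessory subunit, lies on chromosome 10 from 93661700 to 93684188 (mm9, GENCODE M1) and had the largest difference of all members. It was at 125, 148 and 185 TPM in TB IL-2 and at 45.6, 26.0 and 43.7 TPM in TB IL-2nil. The lowest library with IL-2 thus exceeded the highest without it, and the difference was 1.98 (SE 0.24, adjusted P = 0.000224, limma), or 3.95-fold. Ndufc1, a subunit of the membrane arm, came next in the complex with 115, 113 and 140 TPM against 38.8, 51.2 and 39.2 TPM (difference 1.49, SE 0.19, adjusted P = 0.00025, limma).

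The core subunits of complex I carry the flavin and the iron-sulfur clusters. Ndufv1, which binds NADH, rose by a log2 difference of 0.76 (SE 0.16, adjusted P = 0.00364, limma). The core subunits Ndufs1, Ndufs3, Ndufs7, Ndufs8 and Ndufv2 had differences from 0.32 to 0.88 and did not pass. The accessory subunit Ndufa6 had a lower mean in TB IL-2, at 79.3, 136 and 122 TPM against 148, 161 and 188 TPM, and did not pass (difference -0.58, SE 0.28, adjusted P = 0.121, limma).

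Complex II, succinate dehydrogenase, has 4 subunits, and 3 of them rose. Sdhb, its iron-sulfur subunit, was at 158, 168 and 170 TPM in TB IL-2 and at 73.1, 81.1 and 86.0 TPM in TB IL-2nil (difference 1.04, SE 0.14, adjusted P = 0.000289, limma). The membrane anchors Sdhc and Sdhd rose by 0.61 (SE 0.16, adjusted P = 0.0107) and 0.69 (SE 0.17, adjusted P = 0.00911, limma). Sdha, the flavoprotein that oxidizes succinate, was at 98.2, 87.3 and 106 TPM against 93.5, 82.0 and 87.5 TPM. These values overlapped, and the difference of 0.14 (SE 0.15) did not pass.

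In complex III, which passes electrons from ubiquinol to cytochrome c, 6 of 9 genes rose. Uqcr11, a small subunit, was at 137, 193 and 202 TPM in TB IL-2 and at 58.0, 52.6 and 72.3 TPM in TB IL-2nil (difference 1.52, SE 0.31, adjusted P = 0.00323, limma). Uqcrq, the ubiquinone-binding subunit, was at 64.9, 60.1 and 69.2 TPM against 20.3, 24.0 and 21.8 TPM (difference 1.51, SE 0.14, adjusted P = 6.71e-05, limma). Cyc1, the cytochrome c1 subunit, rose by 1.15 (SE 0.15, adjusted P = 0.000353, limma). The core protein Uqcrc2 (0.10), the Rieske iron-sulfur protein Uqcrfs1 (0.25) and the hinge protein Uqcrh (-0.35) did not pass. Uqcrh was the most abundant gene of the complex, with 278, 365 and 301 TPM in TB IL-2 and 381, 409 and 406 TPM in TB IL-2nil (SE 0.14, adjusted P = 0.0756, limma).

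In complex IV, cytochrome c oxidase, 9 of 12 genes rose and 1 fell. Cox5a had the largest difference, with 257, 340 and 357 TPM in TB IL-2 and 106, 121 and 118 TPM in TB IL-2nil (difference 1.44, SE 0.17, adjusted P = 0.000169, limma). Cox6a1 rose by 1.32 (SE 0.19), Ndufa4 by 1.16 (SE 0.17) and Cox7a2 by 1.02 (SE 0.19), with adjusted P = 0.000482, 0.000595 and 0.00207 (limma). Cox8a rose by 0.62 (SE 0.21, adjusted P = 0.0358, limma), a call lost without TB IL-2 replicate 2 or 3 or TB IL-2nil replicate 1 (adjusted P up to 0.133), and Cox6b1, at 0.37 (SE 0.16), did not pass. Cox4i1, the most abundant gene of the complex and a subunit needed for its assembly, was at 425, 497 and 486 TPM in TB IL-2 and at 397, 546 and 467 TPM in TB IL-2nil. It overlapped fully between the groups (difference 0.01, SE 0.15, adjusted P = 0.985, limma). A gene named Gm20388 overlaps Cox4i1 on the same strand, which can affect how its reads are assigned.

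Cox7a2l was the gene of complex IV that fell. Its product is a relative of the subunit Cox7a2. Whether this product joins complexes III and IV into supercomplexes in the mouse line used here was not tested. The level of Cox7a2l was 174, 187 and 188 TPM in TB IL-2 and 470, 510 and 471 TPM in TB IL-2nil, with a wide gap between the groups. The difference was -1.40 (SE 0.14, adjusted P = 9.58e-05, limma), or 2.64-fold lower with IL-2. Over 24 alternatives of processing it ranged from -1.79 to -0.95, and it passed in 23 of them, the exception being the placement by labels. Of the summed level of Cox7a2 and Cox7a2l, Cox7a2l made up 47.8 ± 2.35% (SD, n = 3) in TB IL-2 and 83 ± 2.75% (SD, n = 3) in TB IL-2nil.

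In complex V, 13 of 16 genes rose and 1 fell, Atp5sl, which is counted here by its symbol alone and is not a subunit. Atp5b, the catalytic beta subunit and the most abundant of all members, was at 673, 685 and 787 TPM in TB IL-2 and at 279.9, 346 and 301 TPM in TB IL-2nil (difference 1.21, SE 0.15, adjusted P = 0.000245, limma). The gene Baz2a overlaps it on the same strand. Atp5k, the subunit e of the membrane part, had one of the largest differences but the most uneven libraries, with 239, 405 and 393 TPM against 86.2, 132 and 174 TPM (difference 1.41, SE 0.49, adjusted P = 0.0391, limma), and it passed in 13 of 24 alternatives. The call of Atp5k was lost without TB IL-2 replicate 2 or 3, TB IL-2nil replicate 1 or 2, TB+ IL-2 replicate 2 or TB+ IL-2nil replicate 3, named by label (difference 1.14 to 1.66, adjusted P up to 0.131). Atp5h, the subunit d of the stalk, had the smallest difference (0.26, SE 0.13) and did not pass. Atp5sl was at 13.6, 7.30 and 13.6 TPM in TB IL-2 and 25.2, 28.6 and 34.0 TPM in TB IL-2nil (difference -1.31, SE 0.23, adjusted P = 0.00153, limma).

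Subunit c, which forms the rotating ring of the ATP synthase, is encoded by 3 genes with the same mature protein, and these did not move alike. Atp5g1 was at 146, 162 and 165 TPM in TB IL-2 and at 51.0, 41.2 and 42.0 TPM in TB IL-2nil (difference 1.80, SE 0.17, adjusted P = 6.71e-05, limma), or 3.48-fold. Atp5g3 rose by 1.12 (SE 0.17, adjusted P = 0.000575) and Atp5g2 by 0.47 (SE 0.16, adjusted P = 0.0362, limma). The call of Atp5g2 was lost without TB IL-2 replicate 2 or 3, TB IL-2nil replicate 1 or the library labelled TB+ IL-2 replicate 3 (difference 0.37 to 0.55, adjusted P up to 0.131). The share of Atp5g1 in the 3 genes was 16.0 ± 1.27% (SD, n = 3) in TB IL-2 and 8.54 ± 1.67% (SD, n = 3) in TB IL-2nil, while that of Atp5g2 was 39.7 ± 1.37% and 53.5 ± 2.95% (SD, n = 3 each).

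Cytochrome c, Cycs, is the mobile carrier between complexes III and IV and, once released from mitochondria, a trigger of apoptosis. The gene lies on chromosome 6 from 50512562 to 50516537 (mm9, GENCODE M1). Its level was 37.9, 64.4 and 57.3 TPM in TB IL-2 and 14.0, 11.6 and 13.2 TPM in TB IL-2nil. Each library with IL-2 held more than each without it, and the difference was 1.93 (SE 0.24, adjusted P = 0.000231, limma), or 3.81-fold. Cycs, Atp5g1 and Ndufa12 were the 3 members that passed and rose over 3-fold, or 3.9%, beside 4.69% of all genes, a share near that of all genes.

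**Figure D2:**
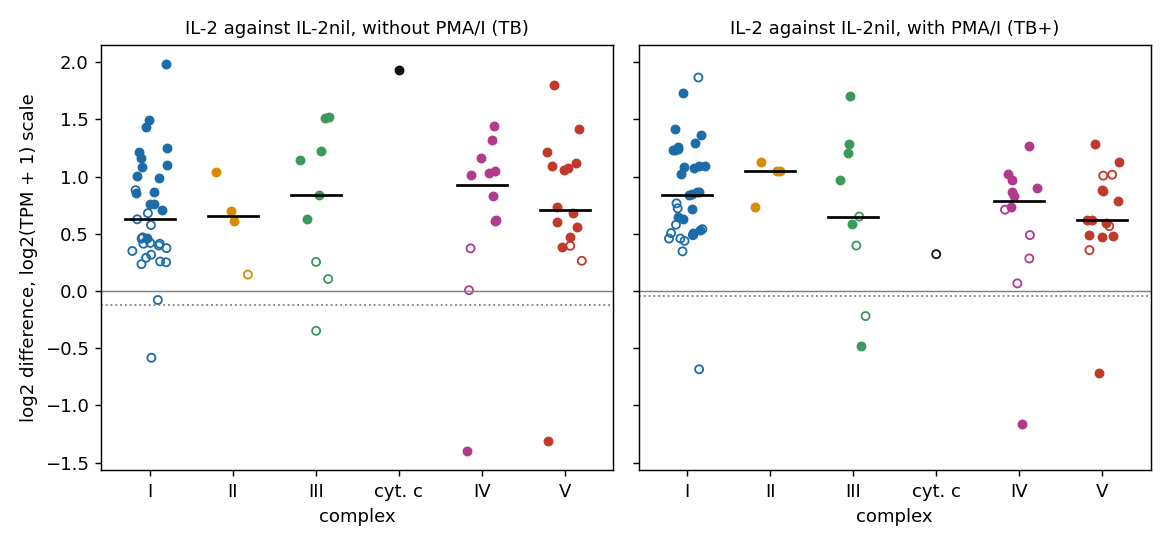
Log2 difference of each member between cells with and without IL-2, on the log2(TPM + 1) scale, by complex, without PMA/I (left) and with it (right); filled points passed an adjusted P of 0.05 in limma, black lines are the medians of a complex, and the dotted line is the median of all genes. Each complex with several members has its median well above that of all genes, and cytochrome c is high on the left and near the open points on the right.

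The same question after stimulation was addressed by comparing TB+ IL-2 with TB+ IL-2nil. These groups share no library with the TB comparison but are not independent of it. Libraries of the same number deviated together from their group means, and 1 fit with a shared spread gave both comparisons. The summed level of the members was 13580, 14894 and 16454 TPM in TB+ IL-2 and 8704, 10418 and 10032 TPM in TB+ IL-2nil, again without overlap. With IL-2, 49 members were higher, beside 12.9% of all genes, and 3 were lower (Cox7a2l, Atp5sl and Uqcrh), beside 8.4% of all genes. The median of the members was 0.77 and that of all genes -0.04. By their labels no member passed in limma, beside 23 genes higher and 4 lower of all 12442. In that fit, 19 members had an unadjusted P under 0.05. Without both relabelled libraries 25 members were higher and 1 was lower, beside 863 and 334 of all genes. Without the library labelled TB IL-2nil replicate 3 alone, 28 were higher, beside 1014 of all genes. Without any single one of that library, TB IL-2 replicate 3, TB+ IL-2 replicate 1, TB+ IL-2nil replicate 1 or TB+ IL-2nil replicate 3, 1 was lower, beside 417 to 879 of all genes. The libraries of TB+ IL-2nil also held more short non-coding RNA, up to 53.2% of the FPKM sum in replicate 1. The part of this in the result was not tested. A fit without these RNAs gave 47 higher members, beside 1565 of 12742 genes. That fit cannot decide it, because libraries were scaled to a common upper quartile both with and without these RNAs.

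Ndufc1 and Uqcr11 were the members that passed and rose over 3-fold, beside 3.21% of all genes. Ndufc1 was at 110, 93.1 and 128 TPM in TB+ IL-2 and at 27.8, 38.8 and 31.3 TPM in TB+ IL-2nil (difference 1.73, SE 0.19, adjusted P = 0.000268, limma). Uqcr11 was at 120, 123 and 201 TPM against 26.6, 60.1 and 50.7 TPM (difference 1.71, SE 0.31, adjusted P = 0.00353, limma). Neither gene's groups overlapped.

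By complex, 22 of 35 genes rose in complex I, all 4 in complex II, 5 of 9 in complex III, 7 of 12 in complex IV and 11 of 16 in complex V. Sdha, which had not passed without PMA/I, was at 75.1, 65.7 and 85.2 TPM in TB+ IL-2 and at 40.6, 43.2 and 50.8 TPM in TB+ IL-2nil (difference 0.73, SE 0.15, adjusted P = 0.00763, limma). Ndufa9, an accessory subunit near the junction of the arms of the complex, was at 83.7, 86.6 and 96.9 TPM against 21.9, 41.2 and 38.9 TPM (difference 1.41, SE 0.22, adjusted P = 0.00177, limma). Without PMA/I the difference of Ndufa9 was 0.58 and missed the threshold (adjusted P = 0.0589), and the interaction did not pass (0.84, SE 0.31, adjusted P = 0.143, limma).

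Cox7a2l was lower with IL-2 here too, at 180, 237 and 187 TPM against 477, 413 and 456 TPM (difference -1.16, SE 0.14, adjusted P = 0.000512, limma). Uqcrh was at 303, 351 and 307 TPM against 476, 428 and 436 TPM (difference -0.48, SE 0.14, adjusted P = 0.0367, limma), and it passed in 16 of 24 alternatives, all of them with a lower level with IL-2. Its adjusted P was up to 0.115 when 1 library was left out, and it was over 0.05 for the same 5 libraries as the count of lower members. For Atp5sl the values were 4.10, 5.60 and 5.35 TPM against 7.68, 10.1 and 8.77 TPM (difference -0.71, SE 0.23, adjusted P = 0.049, limma), a call that held in 8 of 24 alternatives and changed sign, to 0.11, by the labels. When 1 library was left out, the call of Atp5sl held without TB IL-2 replicate 1 or 2 and was lost without any of the others (adjusted P up to 0.137). Cox4i1 differed by 0.07 (SE 0.15) and did not pass. Ndufs5 had the largest difference of all, 1.87, but did not pass (SE 1.09, adjusted P = 0.25, limma), as its level was 0.000857 TPM in TB+ IL-2nil replicate 1 and 28.2 and 25.1 TPM in the other two libraries of the group.

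**Figure D3:**
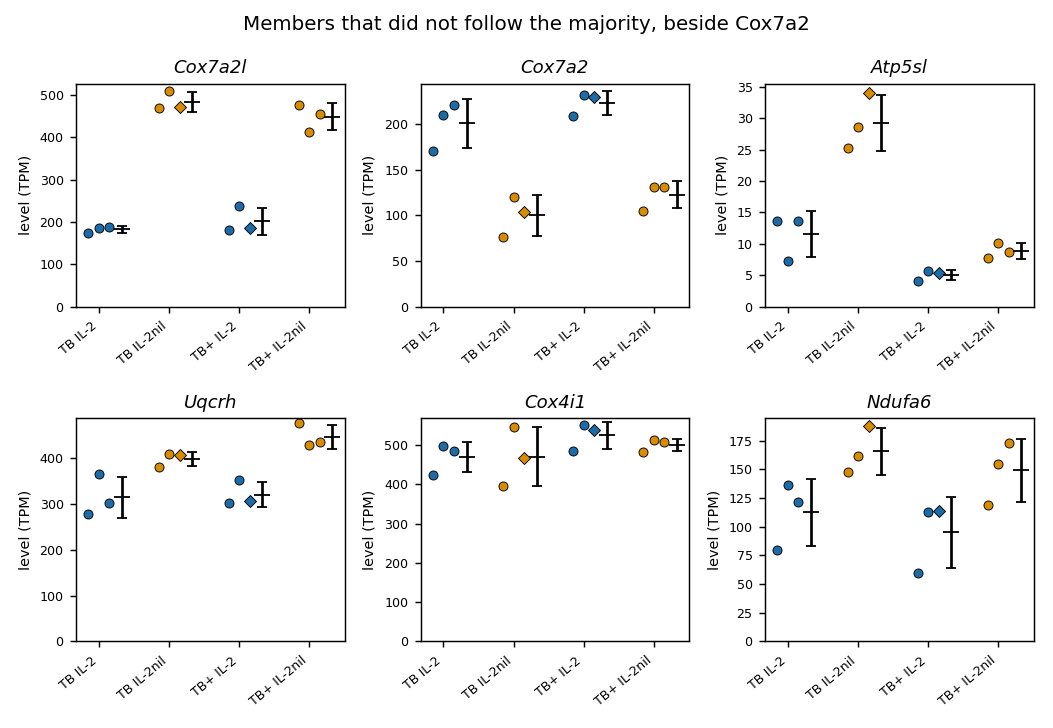
Level in TPM of 6 members in each library of the 4 groups (points; diamonds are the 2 libraries placed in another group than their label), with the mean and SD of 3 libraries beside them, blue with IL-2 and orange without. Cox7a2l lies between 174 and 237 TPM in all 6 libraries with IL-2 and between 413 and 510 TPM in all 6 without, while Cox7a2 has the opposite order and Cox4i1 overlaps.

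Of the 77 members, 40 passed in both comparisons with IL-2, each in the same direction, 10 passed in the TB comparison alone, 12 in the TB+ comparison alone and 15 in neither. Over the members, the differences of the 2 comparisons had a Pearson r of 0.74 and a Spearman rho of 0.66, a description across genes measured in the same libraries. The difference itself was tested as an interaction term, that is, as the IL-2 difference in TB+ minus that in TB. In limma, 0 members had a larger difference in TB+, beside 1.57% of all genes, and 2 had a smaller one, beside 2.66%. These 2 were Cycs and Atp5g1. The unadjusted P of the interaction was under 0.05 for 6 members, beside 2875 of 12442 genes.

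**Figure D4:**
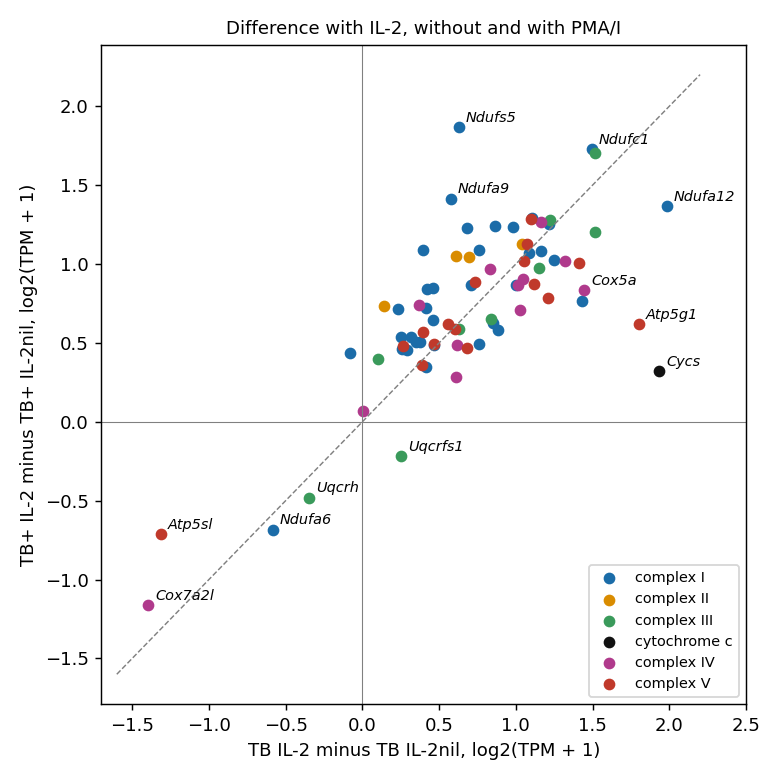
Difference of each member with IL-2 in TB cells (x axis) and in TB+ cells (y axis), both in log2(TPM + 1), coloured by complex, with the line of equal differences dashed. Most members lie along the line in the upper right, Cox7a2l and Atp5sl in the lower left, and Cycs and Atp5g1 far below the line at the right.

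In cells without IL-2, PMA/I was followed by Cycs levels of 52.3, 66.1 and 46.8 TPM in TB+ IL-2nil, against 14.0, 11.6 and 13.2 TPM in TB IL-2nil. The groups were far apart (difference 2.00, SE 0.24, adjusted P = 4.07e-05, limma). With IL-2 kept, TB+ IL-2 cells were at 54.1, 90.2 and 65.4 TPM and overlapped with TB IL-2 (difference 0.39, SE 0.24, adjusted P = 0.23) and with TB+ IL-2nil (difference 0.32, SE 0.24, adjusted P = 0.368, limma). The low level was thus seen in TB IL-2nil alone of the 4 groups. The interaction was -1.61 (SE 0.34, adjusted P = 0.0307, limma), over 24 alternatives it lay between -1.83 and -1.15, and it passed in 12 of them.

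Atp5g1 was also lowest in TB IL-2nil, but its level in TB+ IL-2nil lay between those of TB IL-2nil and of both groups with IL-2. It was at 114, 118 and 85.1 TPM in TB+ IL-2nil, above all TB IL-2nil libraries (difference 1.21, SE 0.17, adjusted P = 0.000121, limma) and below all TB+ IL-2 libraries, which held 167, 140 and 178 TPM (difference 0.62, SE 0.17, adjusted P = 0.0267). This last call was lost without TB+ IL-2 replicate 1, TB+ IL-2nil replicate 3 or the library labelled TB IL-2nil replicate 3 (adjusted P up to 0.102). The interaction was -1.18 (SE 0.24, adjusted P = 0.0277, limma), between -1.34 and -0.71 over 24 alternatives, and it too passed in 12. The share of Atp5g1 in the 3 genes of subunit c was 16.3 ± 2.32% (SD, n = 3) in TB+ IL-2nil and 15.6 ± 1.39% (SD, n = 3) in TB+ IL-2. Atp5g2 and Atp5g3 had interactions of 0.02 (SE 0.22) and -0.24 (SE 0.23), which did not pass.

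For both genes the interaction was lost by the labels (adjusted P = 0.914 each), which leave its size unchanged because the 2 libraries enter it with the same sign, without both relabelled libraries (0.109 for Cycs and 0.0918 for Atp5g1) and with no scaling after TPM (0.23 and 0.346). When 1 library was left out, the call was lost for Cycs without any library other than TB IL-2 replicate 1, TB+ IL-2 replicate 2 and TB+ IL-2nil replicate 3, named by label, and for Atp5g1 without any other than TB IL-2 replicate 1, TB IL-2nil replicate 1 and TB+ IL-2nil replicate 3. The adjusted P over these fits was 0.0156 to 0.0799 for Cycs and 0.0114 to 0.071 for Atp5g1. Without both relabelled libraries the sizes were -1.59 for Cycs and -1.22 for Atp5g1. Over all genes, 195 had a larger and 331 a smaller difference in TB+ in the main fit. These counts were 0 and 0 by the labels, 3 and 1 without both relabelled libraries, and 0 and 1 with no scaling. With 1 library left out they ranged from 21 and 64 to 664 and 650.

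**Figure D5:**
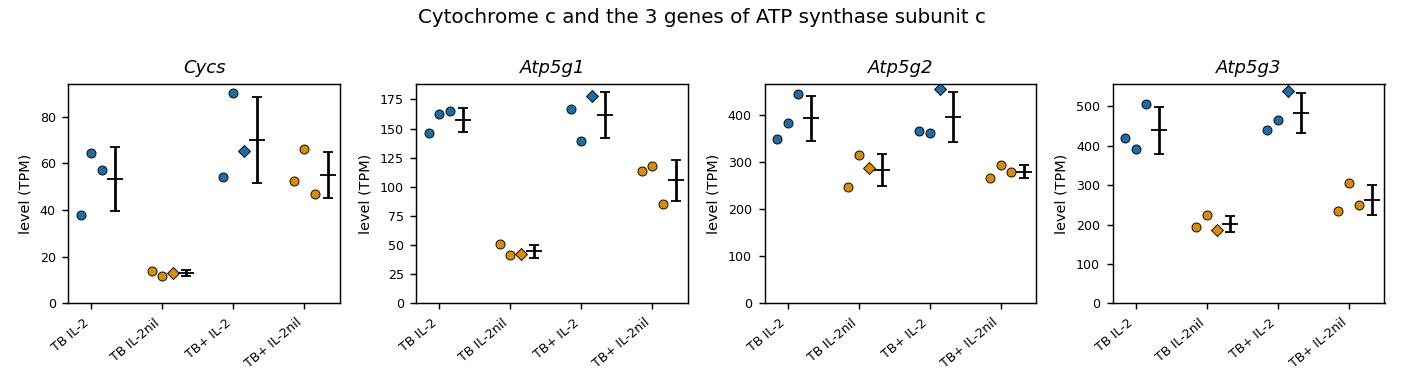
Level in TPM of Cycs and of the 3 genes of ATP synthase subunit c in each library of the 4 groups (points; diamonds are the 2 libraries placed in another group than their label), with the mean and SD of 3 libraries, blue with IL-2 and orange without. Cycs and Atp5g1 are lowest in TB IL-2nil and higher in TB+ IL-2nil, while Atp5g2 is at 267 to 294 TPM in TB+ IL-2nil beside 247 to 316 TPM in TB IL-2nil.

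PMA/I without a change of IL-2 moved few members in cells with IL-2. Between TB+ IL-2 and TB IL-2, no member was higher, beside 11.8% of all genes, and 1 was lower, Atp5sl (difference -1.02, SE 0.23, adjusted P = 0.0063, limma), beside 23.3% of all genes. At an unadjusted P under 0.05 there were 3 members, beside 5597 of 12442 genes. The median difference of the members was -0.09 and that of all genes -0.22, and 67 members overlapped between the groups, beside 48.3% of all genes. With the replicate number as a block, 2 were lower, beside 3889 of 12442 genes. The count depended on scaling, as 9 members were higher after median scaling, beside 2246 of 12442 genes. That scaling moved the median of all genes to 0.02 and that of the members to 0.22.

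In cells without IL-2, 9 members were higher after PMA/I, beside 20.1% of all genes, and 10 were lower, beside 41.1% of all genes, so that both shares were below those of all genes. Higher were Cycs, Atp5g1, Atp5b, Ndufa12, Ndufa5, Uqcrfs1, Uqcrq, Cox5a and Cox7c. Among the lower were Ndufa8, Ndufa9, Ndufs7, Ndufv1 and Ndufv3 of complex I, Sdha, Sdhc and Sdhd of complex II, and Atp5sl. Of the 10 lower members, 9 thus belonged to complexes I and II and the other was Atp5sl. In complex I, 6 of 35 genes were lower, a share below the 41.1% of all genes. The median difference was -0.34 in complex I, -0.62 in complex II, 0.08 in complex III, 0.10 in complex IV and -0.03 in complex V. The median of all genes was -0.38, so that complex II alone had a median below it. No test of the difference between complexes was made.

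Among the subunits that fell, Sdha had the smallest P-value, and went from 93.5, 82.0 and 87.5 TPM in TB IL-2nil to 40.6, 43.2 and 50.8 TPM in TB+ IL-2nil (difference -0.96, SE 0.15, adjusted P = 0.000301, limma). Ndufs7, a core iron-sulfur subunit, went from 52.4, 47.2 and 48.8 TPM to 29.8, 19.7 and 35.4 TPM (difference -0.82, SE 0.21, adjusted P = 0.00512, limma). Atp5b went from 279.9, 346 and 301 TPM to 572, 574 and 445 TPM (difference 0.78, SE 0.15, adjusted P = 0.0011, limma). None of these 3 overlapped between the groups.

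These counts moved with the scaling between libraries. The median of all genes lay at -0.38 in this comparison. With median scaling it was at -0.02, 29 members were higher and 2 lower, beside 3664 and 3284 of 12442 genes. With quantile normalization it was at -0.14, 4 members were higher and 32 lower, beside 2910 and 3787 of all genes. With no scaling after TPM it was at -0.78, 1 was higher and 27 lower, beside 1302 and 6108 of all genes. By the labels, 0 were higher and 3 lower, beside 239 and 430 of all genes. With the replicate number as a block, 11 were higher and 18 lower, beside 2838 and 5762 of all genes. Without TB IL-2nil replicate 1 or TB+ IL-2nil replicate 2, 5 members were higher, beside 2357 and 2251 of all genes. The call of Ndufa12 was lost without TB IL-2nil replicate 2 or TB+ IL-2nil replicate 2 or 3 (adjusted P up to 0.137), and that of Uqcrq without TB IL-2nil replicate 1 (0.0538). Directions in this comparison are therefore relative to the upper quartile of the libraries.

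Genes that work with the subunits were compared by lists, whose counts are read beside the 17.3% of all genes that rose and the 22.3% that fell, and whose medians beside the -0.13 of all genes. Of 14 subunits and partners with other symbols, 9, or 64.3%, rose in TB IL-2 over TB IL-2nil and none fell, and their median difference was 0.72. The largest of these were Atpif1, the inhibitor of ATP synthase (1.62, SE 0.38, adjusted P = 0.00699), and Ndufab1, the mitochondrial acyl carrier protein of complex I (1.12, SE 0.27, adjusted P = 0.00766, limma). Of 47 assembly factors, 8 rose, or 17.0%, a share near that of all genes, and 3 fell, or 6.38%, and their median was 0.22. Ndufaf2 of complex I (1.71, SE 0.37) and Uqcc2 of complex III (1.67, SE 0.17) rose most, and Surf1 of complex IV (-1.05, SE 0.18) and Uqcc3 of complex III (-1.05, SE 0.23) fell most, with adjusted P = 0.00418, 8.62e-05, 0.00129 and 0.00503 (limma).

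Of 13 enzymes of the tricarboxylic acid cycle, which supplies NADH and succinate, 6, or 46.2%, rose in TB IL-2 and none fell, and their median was 0.37. Idh3a, a subunit of isocitrate dehydrogenase (1.45, SE 0.19, adjusted P = 0.000284), and Fh1, fumarase (1.35, SE 0.24, adjusted P = 0.00151, limma), rose most. Of 78 mitochondrial ribosomal proteins, which translate the mitochondrially encoded subunits, 40 rose, or 51.3%, and 2 fell, or 2.56%, and their median was 0.54. Mrps28 (1.87, SE 0.28) and Mrpl42 (1.72, SE 0.25) rose most, and Mrpl9 (-1.0, SE 0.26) and Mrpl24 (-0.63, SE 0.18) were the ones that fell, with adjusted P = 0.000592, 0.000514, 0.0118 and 0.0169 (limma).

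Of 16 glycolytic genes tested, 11, or 68.8%, rose and none fell, and their median was 1.47, above the 0.69 of the oxidative phosphorylation members. Tpi1, triosephosphate isomerase (3.38, SE 0.36, adjusted P = 0.00011), and Hk2, a hexokinase (2.69, SE 0.42, adjusted P = 0.000783, limma), rose most. Of 15 regulators of mitochondrial biogenesis and mitochondrial DNA expression, 2 rose, or 13.3%, and 1 fell, or 6.67%, both shares below those of all genes, and their median was -0.04. The higher ones were Pprc1, a coactivator related to PGC-1 (1.78, SE 0.34, adjusted P = 0.00237), and Tfb1m, which modifies mitochondrial ribosomal RNA (1.22, SE 0.18, adjusted P = 0.000643), and the lower one was Polg2, a subunit of the mitochondrial DNA polymerase (-0.70, SE 0.15, adjusted P = 0.00421, limma).

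In TB+ cells, the counts with IL-2 were 7 higher and 0 lower of the 14 partners, 11 and 3 of the assembly factors, 6 and 0 of the tricarboxylic acid cycle enzymes, 24 and 1 of the mitochondrial ribosomal proteins, 5 and 0 of the glycolytic genes and 0 and 0 of the regulators. The shares that were higher were 50%, 23.4%, 46.2%, 30.8%, 31.2% and 0% in the same order, beside 12.9% of all genes. The medians were 0.85, 0.40, 0.61, 0.42, 0.81 and -0.35, beside -0.04 for all genes. No list was tested as a set.

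The members have short transcripts. Their longest coding transcript had a median of 955 bases in the annotation, against 2914 bases for the 10553 genes tested that have a length. Short genes as a class were also higher with IL-2. Among 718 genes tested with a transcript under 1000 bases, the median difference was 0.21 in the TB comparison and 0.31 in the TB+ comparison, and 30.5% and 28.3% were called higher, beside the 17.3% and 12.9% of all genes. The medians of the members, 0.69 and 0.77, were above those of the short genes, and 42 members are under 1000 bases. Across all genes with a length, length and difference had a Spearman rho of -0.20 and -0.23 in the 2 comparisons, and across members of -0.09 and -0.05. The part of length in the results was not tested further.

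Markers of other cells were low. The summed level of 4 B cell markers was 5.94 to 10.4 TPM in TB IL-2, 23.2 to 29.6 TPM in TB IL-2nil, 2.36 to 3.31 TPM in TB+ IL-2 and 5.49 to 12.7 TPM in TB+ IL-2nil, and was thus higher without IL-2 in both comparisons. The 2 markers of CD8 T cells summed to 6.91 to 31.9 TPM over the 12 libraries, the 3 myeloid markers tested to 1.57 to 4.88 TPM, the 2 markers of regulatory T cells to 1.32 to 9.51 TPM, and the 1 marker of red cell precursors tested to 0 to 12.9 TPM. No marker of NK cells and none of the myeloid markers Csf1r, Lyz2 and Cd14 reached the level tested. The part of other cells in the results was not tested.

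Of the 77 members, 65 have a promoter in the RefSeq table, and the 250 bases before the start were searched on both strands for 8 motifs. The NRF1 core, CGCATGCG, was in the promoters of 8 members, or 12.3%, beside 1.75% of 27025 genes. For motifs, all genes means these 27025, which include genes not tested here, and shares among the genes tested alone were not worked out. The 8 were Cycs, shown above, Atp5g2, Atp5j, Atp5k, Atp5l, Cox6a1, Ndufa11 and Ndufa8, and 7 of them rose in TB IL-2, all but Ndufa8. Of all 77 members, 62.3% rose, and the calls of Atp5g2 and Atp5k were lost in several fits, as given above. The ETS/GABP motif, CCGGAAG, was in 12 members, or 18.5%, beside 7.83% of all genes, and the CREB motif, TGACGTCA, in 5, or 7.69%, beside 1.77%. The YY1 motif, AAGATGGCG, was in 2 members, or 3.08%, beside 0.71%.

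Shares of the other motifs lay closer to those of all genes. The GC box, GGGCGG, was in 33.8% of members beside 35.4% of all genes, the E-box, CACGTG, in 10.8% beside 6.86%, the STAT motif, TTCNNNGAA, in 7.69% beside 8.13%, and the AP-1 motif, TGANTCA, in 9.23% beside 7.82%. Atp5g1 has an E-box that starts 44 bases before its RefSeq start and none of the other 7 motifs. Some of these letters can lie within one another, and a match does not show that a factor binds. Among members with a motif, 8 of 12 rose in TB IL-2 for ETS/GABP, 3 of 5 for CREB and 1 of 2 for YY1. The counts were 16 of 22 for the GC box, 5 of 7 for the E-box, 4 of 5 for STAT and 2 of 6 for AP-1. A link between motifs and the difference with IL-2 was not tested.

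At the edge of the level that selected the members, Ndufa11 and Atp5sl were the members with the lowest values over 1 FPKM in all 12 libraries, at 1.16 to 8.10 and 1.27 to 9.88 FPKM. Cox7a1, the heart and muscle form of subunit VIIa, was over 1 FPKM in 2 libraries, with at most 1.59 FPKM, and stayed outside. Atp5s reached 0.876 FPKM. The other genes outside were the tissue-restricted forms Cox4i2, Cox6a2, Cox6b2, Cox7b2, Cox8b, Cox8c and Ndufa4l2, of which Cox6a2, Cox7b2 and Cox8c were listed at 0 in all 12 libraries and the others reached at most 0.674 FPKM. Against these tissue-restricted forms, the RNA was thus mostly that of the widely expressed one, such as Cox4i1, Cox6a1, Cox6b1, Cox7a2, Cox8a and Ndufa4. Cox7a2l is left out of this, as it made up 83% of its summed level with Cox7a2 in TB IL-2nil.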

How the data were processed

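RNA-Seq was done on 12 libraries of mouse CD4 T blast cells. The authors removed ribosomal RNA and sequenced directional libraries from both ends. They trimmed reads (Trimmomatic 0.32), aligned them to mm9 (HISAT2 2.1.0) and quantified RefSeq genes (StringTie 1.3.3), with versions per the submitters' processing notes. The deposited values are FPKM per gene, without normalization between libraries or counts, although the methods name TPM. Depth is known only relative to the median library, and no counting interval is given.

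Here the values of a library were turned into TPM (sum 1000000). Genes that exceeded 1 TPM in any library entered the tests, and libraries were scaled to a common 75th percentile. Values of log2(TPM + 1) from all 12 libraries, in 4 groups of 3, were fitted in limma 3.58.1 (R 4.3.3) without a block, with Benjamini-Hochberg adjustment, for 4 comparisons and their interaction. The scale understates changes of low genes. Libraries labelled TB IL-2nil replicate 3 and TB+ IL-2 replicate 3 were exchanged, as in the study's list. Libraries of the same number deviated together from their group means (18 of 18 correlations over 0.1, 0.101 to 0.531), the numbers coming from the labels, so a block on the number was an alternative.

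Members and lists were chosen with earlier results of these data known. Named genes were, per complex, the one with the highest level, the 2 with the largest and the 1 with the smallest difference between TB IL-2 and TB IL-2nil, isoform families, members over 3-fold or with an interaction, and up to 2 per direction from each other list. Ndufv1, Cyc1, Ndufa6, Ndufa9, Ndufs5, Ndufs7 and Uqcrfs1, and others given by name alone, were added after their values were seen. The alternatives were placement, scaling, pseudocount, filter, trend, block and leaving out each library, and for named members outside the TB comparison they were added after seeing the data. The fit was tested on simulated data. A few genes are left unnamed in the text but stay in all counts. Lengths and coordinates are from GENCODE M1 on mm9, and promoters from RefSeq (GRCm38.p6), matched exactly to mm9. Many subunit genes have processed pseudogenes, and reads shared with them were not examined.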

Additional observations from a re-analysis of the deposited data

Results flagged for a closer look

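The difference with IL-2 differed between TB+ and TB cells for Cycs (interaction -1.61, adjusted P = 0.0307) and for Atp5g1 (interaction -1.18, adjusted P = 0.0277), both by limma with Benjamini-Hochberg adjustment. The difference of Cycs with IL-2 was 1.93 in TB and 0.32 in TB+, and that of Atp5g1 was 1.80 and 0.62. All 3 TB+ IL-2nil libraries were above all 3 TB IL-2nil libraries for both genes. Groups of 3 libraries are too small for a search for outlying libraries.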

How the results depend on the processing

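By the labels, no member was higher or lower with IL-2 in either comparison or had an interaction, 0 were lower in TB+ IL-2 than in TB IL-2, and TB+ IL-2nil had 0 higher and 3 lower members than TB IL-2nil. The medians were then 0.47 (TB, with IL-2), 0.49 (TB+, with IL-2), -0.35 (PMA/I with IL-2) and -0.36 (PMA/I without IL-2). By the labels Atp5g1 (-0.069) and Atp5sl (0.11) changed direction between TB+ IL-2 and TB+ IL-2nil, and Ndufa12 (-0.035) and Uqcrq (-0.16) between TB+ IL-2nil and TB IL-2nil. Without both relabelled libraries, 25 members were higher and 1 lower in TB+ with IL-2, beside 863 and 334 of 12442 genes, and none had an interaction. In the TB comparison, no scaling after TPM gave 21 higher members, beside 1220 of 12442 genes, and quantile normalization 4 lower, beside 2690. In the TB+ comparison, no scaling gave a median of 1.15, with 0 lower, beside 58 of 12442 genes, and for the interaction it gave 0. For PMA/I with IL-2, 9 members were higher with median scaling (median 0.22), beside 2246 of 12442 genes, and 4 with no filter, beside 1808 of 17338. A pseudocount of 5 gave 1 higher and 2 lower, beside 1456 and 2840 of 12442. Quantile normalization gave 5 lower (median -0.29), beside 1953. For PMA/I without IL-2, no scaling gave 1 higher and 27 lower (median -0.66), beside 1302 and 6108 of 12442 genes. Quantile normalization gave 4 and 32 (median -0.49), beside 2910 and 3787, and median scaling 29 and 2 (median 0.35), beside 3664 and 3284. With no filter, 15 were higher (median 0.070), beside 3019 of 17338. In that comparison Uqcrq (-0.075, no scaling), Atp5g2 (0.46, median scaling), Cox4i1 (-0.58) and Uqcrh (-0.51, both quantile normalization) changed direction. With the replicate number as a block, 4 members were lower with IL-2 in TB, 2 were lower after PMA/I with IL-2 and 18 were lower after PMA/I without IL-2, and no other count moved by over 1.5 times. Of all 12442 genes, 3666, 3889 and 5762 were lower in these 3 comparisons with the block. The counts over all genes moved with the settings as well. By the labels, 9 genes of 12442 were higher and 6 lower with IL-2 in TB, and 23 and 4 in TB+. After PMA/I they were 30 and 32 with IL-2 and 239 and 430 without it. The causes were not tested.

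Leaving out each library in turn gave 35 to 54 higher and 2 to 3 lower members in TB with IL-2, beside 1713 to 2230 and 1917 to 2842 of 12442 genes. In TB+ with IL-2 it gave 28 to 50 and 1 to 3, beside 1014 to 1559 and 417 to 1107. After PMA/I with IL-2 it gave 0 and 1, beside 1100 to 1543 and 2033 to 3006. After PMA/I without IL-2 it gave 5 to 10 and 9 to 15, beside 2214 to 2536 and 4582 to 5093. An interaction passed for 0 to 2 members. Without counts, values near 0 are the least certain.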
